A study of Mus musculus with 9 samples.

Results

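The genes described here encode the receptors that trypsin-like proteases cleave and the membrane serine proteases of epithelia with their inhibitors. They were chosen by gene symbol, and 7 of the 8 symbols named one row each on the array, among 19938 genes tested: the receptor genes F2r, F2rl2 and F2rl3, the protease genes St14 and Prss8, and the inhibitor genes Spint1 and Spint2. F2rl1 had no row naming it alone and was not analysed here, so nothing is said of that receptor. The RNA came from mammary epithelial cell preparations of wild-type C3H female mice aged 8 to 9 weeks. Mock sorted cells had been freed with collagenase, digested with trypsin and passed through a mock fluorescence-activated cell sort. Trypsinized cells had met collagenase and trypsin, and untrypsinized cells collagenase alone, so collagenase was common to all 3 groups. Each group had 3 arrays, called biological replicates in the labels, which name no animals for them, so the p-values measure the spread between these samples and part of it may be technical.

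Protease-activated receptors are G protein-coupled receptors that carry their own ligand. A protease cuts the extracellular tail, and the new end of the tail folds back and switches the receptor on, so the cut is irreversible and new signalling needs fresh receptor. Thrombin is the best known activator of the receptors encoded by F2r, F2rl2 and F2rl3, and trypsin cleaves several members of the family. Matriptase, the product of St14, and prostasin, the product of Prss8, sit on the epithelial surface, act on each other and on junction proteins and sodium channels, and are held in check by the Kunitz-type inhibitors encoded by Spint1 and Spint2.

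Promoter sequence is shown for the receptor and the inhibitor gene whose RNA levels changed below and that have an entry in the RefSeq promoter table of GRCm38.p6, and for Spint2 as the other Kunitz inhibitor; 5 of the 8 genes have an entry. Each run gives the 250 bases before the annotated start, 5′ to 3′ on the strand of the gene. Capitals mark matches, on either strand, to TGANTCA (the AP-1 motif), GGGCGG (the GC box) and CCGGAAG (an ETS motif); AACNNGTT, a grainyhead motif, was also searched and had no match in these windows. F2r lies at chr13:95618467-95618716, minus strand, Spint1 at chr2:119237110-119237359, plus strand and Spint2 at chr7:29281978-29282227, minus strand.
F2r: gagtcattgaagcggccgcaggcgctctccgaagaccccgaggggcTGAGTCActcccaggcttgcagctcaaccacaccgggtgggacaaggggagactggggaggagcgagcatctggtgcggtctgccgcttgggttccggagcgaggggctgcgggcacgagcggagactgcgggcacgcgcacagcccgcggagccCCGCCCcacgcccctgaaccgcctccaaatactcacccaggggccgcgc
Spint1: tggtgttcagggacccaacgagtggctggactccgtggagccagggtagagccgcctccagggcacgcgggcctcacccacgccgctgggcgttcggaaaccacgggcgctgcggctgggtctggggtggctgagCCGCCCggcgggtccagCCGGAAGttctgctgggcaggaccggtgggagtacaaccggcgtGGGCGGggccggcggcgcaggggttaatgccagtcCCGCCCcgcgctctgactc
Spint2: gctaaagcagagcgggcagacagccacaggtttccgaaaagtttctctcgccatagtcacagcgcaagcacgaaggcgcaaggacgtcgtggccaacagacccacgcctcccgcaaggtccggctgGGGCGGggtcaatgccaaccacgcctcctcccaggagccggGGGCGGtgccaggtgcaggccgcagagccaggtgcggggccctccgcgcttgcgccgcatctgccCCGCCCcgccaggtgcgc
The F2r window held 1 AP-1 match and 1 GC box, the Spint1 window 3 GC boxes and 1 ETS match, and the Spint2 window 3 GC boxes. Over 32817 promoter windows of this length, 6.75% held the AP-1 motif, 32.7% a GC box, 6.9% the ETS motif and 3.64% the grainyhead motif. These matches describe the letters alone.

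Values are intensities on a linear scale as deposited, and tests used log2 of the intensity plus 1, so a change is the first group's mean log2 level minus the second's, given with its standard error (SE). Tests came from one limma fit of all 9 arrays, with p-values adjusted over the 19938 genes. A gene passed where its adjusted p was at most 0.05, and was called where it passed and the fold was at least 1.5. The arrays had median intensities of 345 to 408, and precision is limited by their number. By their own row, 1015 olfactory receptor genes, which mammary cells are not known to use, had a median log2 level of 6.62 and a 95th percentile of 8.21, and serve as a guide to background.

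None of the 7 genes was called in any of the 3 comparisons, in which 1.46% (trypsinized against untrypsinized), 1.19% (mock sorted against trypsinized) and 4.47% (mock sorted against untrypsinized) of all genes were; 0.532%, 0.0251% and 1.08% were called higher and 0.933%, 1.17% and 3.4% lower in the same order. In limma's unadjusted p at 0.05, 3, 2 and 5 of the 7 passed in these comparisons, against 39.7%, 17.2% and 49.3% of all genes. By adjusted p alone, Prss8 and Spint1 were higher in trypsinized than in untrypsinized cells, where 13.9% of all genes were higher and 11.5% lower (25.4% in all). Prss8 and Spint1 were also higher, and F2r lower, in mock sorted than in untrypsinized cells, where 21% of all genes were higher and 18% lower (39% in all). No member passed between mock sorted and trypsinized cells in the fit without a block or variance trend, where 4.67% of all genes did, 0.466% higher and 4.2% lower. In the F test over the 3 groups F2r, Prss8 and Spint1 passed (adjusted p = 0.0413, 0.00265 and 0.00483), as did 33.2% of all genes. With shares of this size in the background, the counts do not set these genes apart from the rest of the array.

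The thrombin receptor gene F2r had intensities of 1206, 927 and 947 in mock sorted cells, 1426, 1218 and 1239 in trypsinized cells, and 1526, 1260 and 1366 in untrypsinized cells. All mock sorted arrays lay below all arrays of both other groups, and trypsinized and untrypsinized arrays overlapped. Of all genes, 23.4% lay lower without overlap in mock sorted than in untrypsinized arrays, and 14.3% in mock sorted than in trypsinized arrays. Replicate 1 was the highest of each group. F2r fell by 0.44 on the log2 scale in mock sorted against untrypsinized cells (SE 0.12, adjusted p = 0.0193), which is 1.35-fold lower. Between mock sorted and trypsinized cells the change was -0.34 (SE 0.12, adjusted p = 0.171). Mock sorted and trypsinized arrays of the same replicate number deviated together, and with the number as a block F2r passed in this comparison (adjusted p = 0.0138, and 0.0469 in a fit of these 6 arrays alone), with differences of -0.24, -0.39 and -0.39 in the 3 pairs. It also passed there without mock sorted replicate 1, at -0.46 (adjusted p = 0.0418). Between trypsinized and untrypsinized cells the change was -0.10, with a 95% interval of -0.36 to 0.17 (adjusted p = 0.573).

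Whether the fall of F2r against untrypsinized cells passed depended on single arrays, and leaving one out also leaves fewer arrays to test. Without untrypsinized replicate 1 it was -0.36 (adjusted p = 0.0653), without mock sorted replicate 2 it was -0.37 (adjusted p = 0.0662) and without mock sorted replicate 3 it was -0.38 (adjusted p = 0.0666). Its sign was the same in all 21 alternatives run for that comparison, from -0.59 to -0.36, with adjusted p from 0.00119 to 0.0666.

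F2rl2 encodes the receptor that, on mouse platelets, serves as a cofactor for thrombin. Its intensities were 188, 214 and 209 in mock sorted cells, 208, 183 and 183 in trypsinized cells, and 179, 182 and 188 in untrypsinized cells. The row was dim in every array: its mean log2 level of 7.60 was above 85.1% of the olfactory receptor genes and below their 95th percentile, so it may not be above background. The mock sorted arrays lay just above the untrypsinized ones without overlap, as 28.7% of all genes did, and the change of 0.15 did not pass (SE 0.07, adjusted p = 0.102). It passed with array weights (adjusted p = 0.0491) and without mock sorted replicate 1 at 0.21 (adjusted p = 0.0405), and was -0.05 after quantile normalization.

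F2rl3 encodes the receptor through which thrombin signals in mouse platelets. It had intensities of 379, 474 and 413 in mock sorted cells, 454, 497 and 382 in trypsinized cells, and 353, 444 and 496 in untrypsinized cells. The 3 groups overlapped throughout, and the spread within a group (SD 0.16 to 0.25 on the log2 scale) was larger than that of either protease gene (St14 and Prss8). Its change was 0.05 in trypsinized against untrypsinized cells, with a 95% interval of -0.28 to 0.38, and -0.02 in mock sorted against untrypsinized cells, with an interval of -0.36 to 0.31 (adjusted p = 0.827 and 0.912). Changes within these intervals could not be told from none with 3 arrays per group. The 8 measured platelet and megakaryocyte markers had summed intensities of 2307 to 2513 in mock sorted, 2383 to 2539 in trypsinized and 2257 to 2586 in untrypsinized arrays. Their median log2 level was 8.16 to 8.32, 8.19 to 8.28 and 7.96 to 8.22 in the same order of groups. That is near the olfactory 95th percentile of 8.21, so part of the list may not be above background. The named platelet genes did not run one way. Pf4, a chemokine of platelet granules, stood at a log2 level of 8.38 ± 0.04 in mock sorted, 8.70 ± 0.13 in trypsinized and 9.04 ± 0.07 in untrypsinized cells (SD, n = 3 each). Itga2b, an integrin subunit of platelets, stood at 8.97 ± 0.07, 8.88 ± 0.08 and 8.61 ± 0.10, and Gp9, part of the receptor for von Willebrand factor, at 8.45 ± 0.17, 8.32 ± 0.05 and 8.18 ± 0.25 in the same order of groups.

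**Figure D1:**
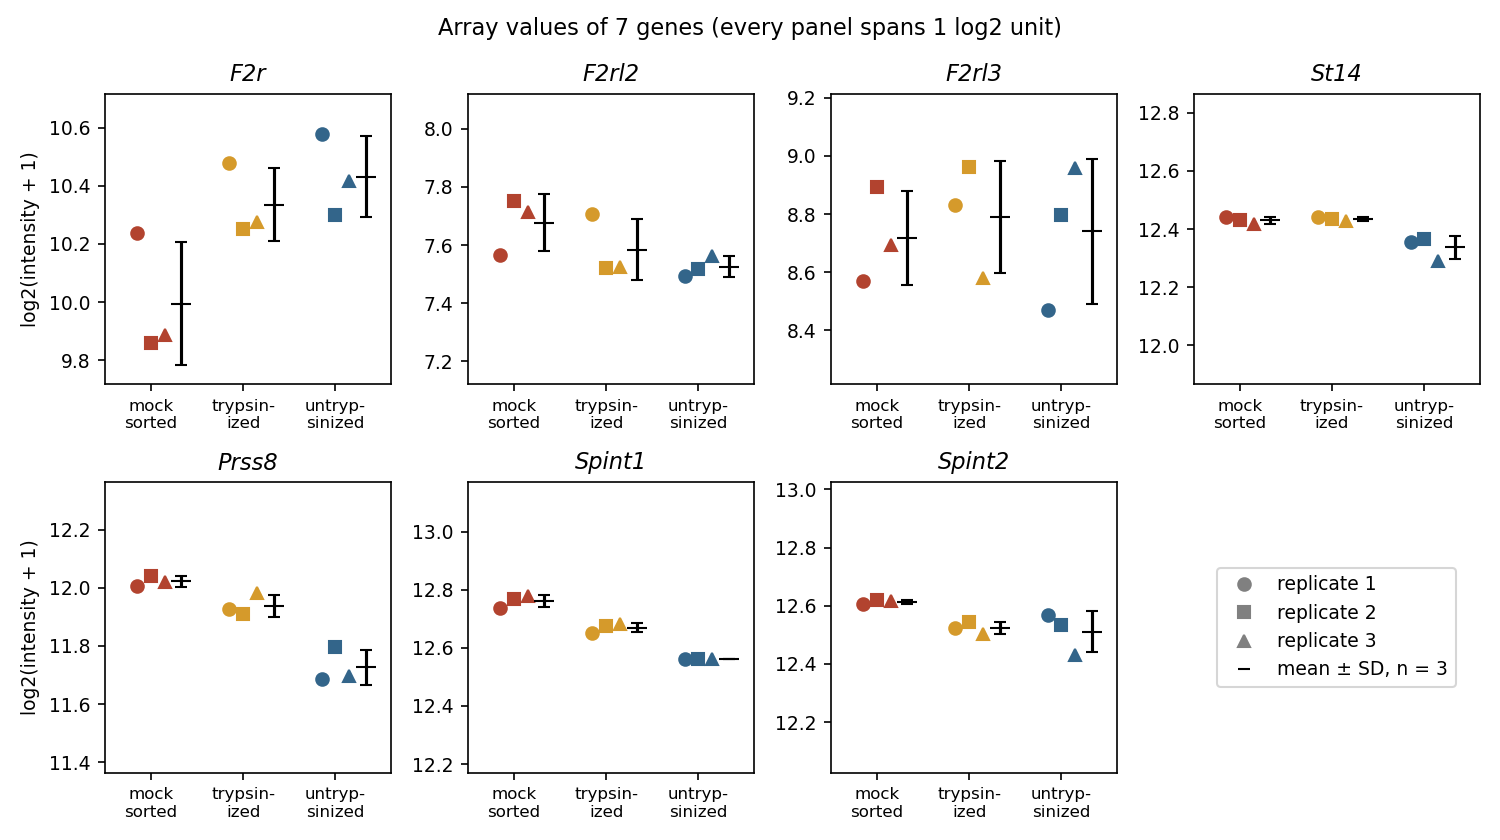
Log2(intensity + 1) of the 7 genes on each array, with mock sorted, trypsinized and untrypsinized cells from left to right, 1 point per array shaped by replicate number, and the mean ± SD (n = 3) beside each group. Every panel spans 1 log2 unit, so distances can be compared: F2r falls in mock sorted cells, F2rl3 scatters within each group, and Prss8 and Spint1 step up in trypsinized and mock sorted cells with little scatter.

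St14, the matriptase gene, had intensities of 5567, 5518 and 5472 in mock sorted cells, 5560, 5539 and 5510 in trypsinized cells, and 5242, 5273 and 5006 in untrypsinized cells. Mock sorted and trypsinized arrays overlapped, and both sets lay above the untrypsinized arrays. Of all genes, 28.7% lay higher without overlap in mock sorted than in untrypsinized arrays, and 25% in trypsinized than in untrypsinized arrays. The change in trypsinized against untrypsinized cells was 0.10 (SE 0.03, 95% interval 0.02 to 0.18), which did not pass the adjusted p (0.0652), and that in mock sorted against untrypsinized cells was 0.09 (SE 0.03, adjusted p = 0.0569). Both passed after quantile normalization (adjusted p = 0.0451 and 0.0332) and with a robust variance trend (adjusted p = 0.0115 and 0.0100), and both turned sign, to -0.036 and -0.056, with one median per array over all rows. Between mock sorted and trypsinized cells the 95% interval of the difference was -0.08 to 0.07.

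Prss8, the prostasin gene, had the largest changes against untrypsinized cells of the 4 epithelial genes. Its intensities were 4109, 4211 and 4155 in mock sorted cells, 3889, 3844 and 4042 in trypsinized cells, and 3298, 3557 and 3320 in untrypsinized cells. The 3 groups did not overlap, and 25% of all genes lay higher without overlap in trypsinized than in untrypsinized arrays. The share was 28.7% for mock sorted over untrypsinized and 9.74% for mock sorted over trypsinized arrays. Prss8 rose by 0.21 in trypsinized against untrypsinized cells (SE 0.04, adjusted p = 0.00907), a change of 15.8%, and by 0.29 in mock sorted against untrypsinized cells (SE 0.04, adjusted p = 0.000989), a change of 22.7%. The further difference of mock sorted from trypsinized cells was 0.08 (SE 0.04, adjusted p = 0.358). Both rises passed in every alternative with a test except one median per array over all rows, where they were 0.08 (adjusted p = 0.293) and 0.14 (adjusted p = 0.0512).

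Spint1 encodes hepatocyte growth factor activator inhibitor type 1, the main partner of matriptase in epithelia. Its intensities were 6833, 6978 and 7024 in mock sorted cells, 6432, 6535 and 6570 in trypsinized cells, and 6050, 6048 and 6048 in untrypsinized cells. The groups did not overlap, and the untrypsinized arrays had an SD of 0.789 intensity units. Of all genes, 28.7% lay higher without overlap in mock sorted than in untrypsinized arrays. The share was 25% for trypsinized over untrypsinized and 9.74% for mock sorted over trypsinized arrays. Spint1 rose by 0.20 in mock sorted against untrypsinized cells (SE 0.03, adjusted p = 0.00159), a change of 14.8%, which was 0.05 (adjusted p = 0.471) with one median per array over all rows. In trypsinized against untrypsinized cells it rose by 0.11 (SE 0.03, adjusted p = 0.0370). That smaller rise did not pass without any one of the 6 arrays compared or without mock sorted replicate 2 or 3 (adjusted p from 0.0578 to 0.108), nor with the replicate block (adjusted p = 0.0599), in a fit of these 6 arrays alone (adjusted p = 0.0810) or with a common median of the tested genes (adjusted p = 0.156). It was -0.03 when all rows were given one median per array. Mock sorted cells were 0.09 above trypsinized cells (SE 0.03, adjusted p = 0.157), with differences of 0.09, 0.09 and 0.10 in the 3 pairs, and this difference passed with a robust variance trend (adjusted p = 0.0180).

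Spint2 encodes the second Kunitz inhibitor of the pair, which also acts on prostasin. It had intensities of 6228, 6296 and 6273 in mock sorted cells, 5882, 5970 and 5806 in trypsinized cells, and 6068, 5936 and 5521 in untrypsinized cells. All mock sorted arrays lay above all arrays of the other groups, and trypsinized and untrypsinized arrays overlapped. Of all genes, 28.7% lay higher without overlap in mock sorted than in untrypsinized arrays, and 9.74% in mock sorted than in trypsinized arrays. The change in mock sorted against untrypsinized cells was 0.10 (SE 0.04, 95% interval 0.01 to 0.20), which did not pass the adjusted p (0.0834), and that in mock sorted against trypsinized cells was 0.09 (SE 0.04, adjusted p = 0.321). With a robust variance trend the first of these passed (adjusted p = 0.0190). The change in trypsinized against untrypsinized cells was 0.01 (adjusted p = 0.857).

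**Figure D2:**
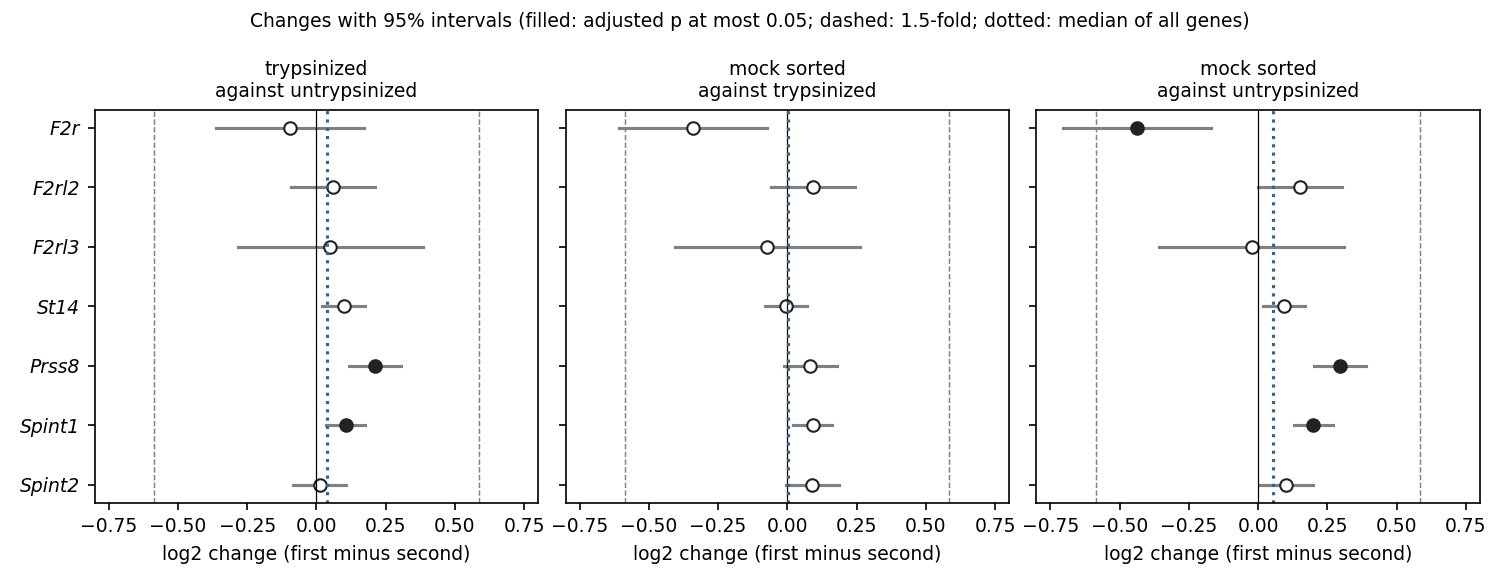
Log2 change of each gene in the 3 comparisons, the first group named minus the second, with 95% intervals from limma. Filled points have an adjusted p of 0.05 or below, dashed lines mark 1.5-fold and the dotted line the median change of all genes. Prss8 and Spint1 are filled to the right in the outer panels and F2r to the left in the last one, and none reaches a dashed line.

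The 4 epithelial genes had a median change of 0.15 in mock sorted against untrypsinized cells, against a median of 0.05 over all genes, and of 0.10 in trypsinized against untrypsinized cells, against 0.04. All 4 had mock sorted arrays above the untrypsinized ones without overlap, as 28.7% of all genes did (52.1% in either direction). St14, Prss8 and Spint1 had trypsinized arrays above the untrypsinized ones without overlap, as 25% of all genes did (44.4% in either direction). In mock sorted against trypsinized cells their median was 0.09, against 0.00 over all genes, and Prss8, Spint1 and Spint2 lay higher without overlap, as 9.74% of all genes did (24% in either direction). Over the 9 arrays, which share the group differences, Prss8 and Spint1 had a Pearson r of 0.94, Prss8 and St14 one of 0.87, and F2r one of -0.83 with Spint1.

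Some of the small changes turned sign with the scaling between arrays. When every array was given the same median of all rows, the median change of all genes was -0.09 in mock sorted against untrypsinized cells, where it was 0.05 as deposited. In trypsinized against untrypsinized cells it was -0.09, where it was 0.04 as deposited. The share of called genes that were higher was 24.1% and 36.3% in these comparisons as deposited, and 8.27% and 13% under that scaling. Relative to the median of all genes, the mock sorted against untrypsinized change of Prss8 was 0.24 to 0.35 over the 4 scalings, that of Spint1 0.14 to 0.25, that of St14 0.04 to 0.16, that of Spint2 0.05 to 0.15 and that of F2r -0.49 to -0.39.

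**Figure D3:**
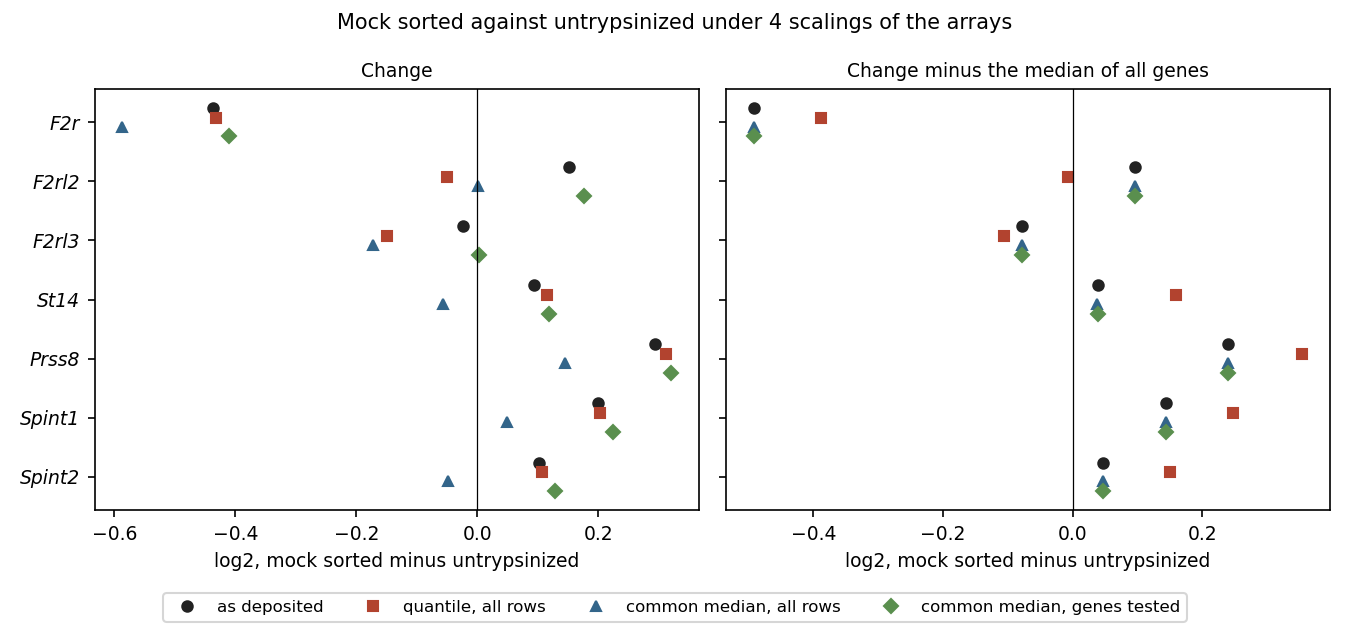
Change of each gene in mock sorted against untrypsinized cells (log2) with arrays as deposited, after quantile normalization, and with a common median over all rows or over the genes tested. The left panel gives the change and the right panel the change minus the median of all genes. On the right, the 4 epithelial genes lie above 0 and F2r and F2rl3 below it under each scaling.

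Markers of several other cell types fell, as F2r did, in mock sorted against untrypsinized cells. In trypsinized against untrypsinized cells F2r did not pass (-0.10). There 17 of 19 endothelial, 8 of 11 pericyte and vascular smooth muscle and 7 of 14 fibroblast markers were lower by adjusted p. Their medians were -0.46, -0.35 and -0.30, and 11.5% of all genes were lower. In mock sorted against trypsinized cells F2r was at -0.34 (adjusted p = 0.171). There 18, 8 and 0 of these markers were lower by adjusted p, as were 4.2% of all genes. Of 19 endothelial markers, 18 were called lower in mock sorted against untrypsinized cells (median change -1.54), where 3.4% of all genes were called lower, and their summed intensity was 19909 to 23561 in mock sorted, 40445 to 40857 in trypsinized and 50624 to 57448 in untrypsinized arrays. Of 11 pericyte and vascular smooth muscle markers 7 were called lower (median -0.93; sums of 7499 to 8229, 12633 to 13109 and 15777 to 17581 in the same order of groups), and of 14 fibroblast markers 3 (median -0.48; 30968 to 33834, 33418 to 36836 and 38397 to 42959). Of 15 basal and myoepithelial markers 1 was called lower (median -0.09; 63248 to 64695, 68585 to 69505 and 70852 to 73122). No marker in these 4 lists lay below the olfactory median on any array. Of 8 Schwann cell markers 4 were called lower in mock sorted against untrypsinized cells (median -0.68), and of 10 adipocyte markers 4 (median -0.27). Of 12 macrophage and myeloid markers 2 were called lower (median -0.19). Of 12 lymphocyte markers 3 were called higher (median 0.65), as were 1.08% of all genes. F2r is known from endothelial cells, fibroblasts and smooth muscle, and the part of these cells in its fall was not tested. In such bulk samples fewer cells of a type and less RNA per cell cannot be told apart.

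Luminal markers were measured beside the epithelial genes. Of 17 luminal markers, 11 were higher and 1 lower by adjusted p in mock sorted against untrypsinized cells and none was called, with a median change of 0.13. Over all genes 21% were higher and 18% lower in that comparison, with a median of 0.05. The markers had summed intensities of 128360 to 129696 in mock sorted, 124584 to 126366 in trypsinized and 114687 to 118224 in untrypsinized arrays. In trypsinized against untrypsinized cells 8 of the markers were higher and 0 lower by adjusted p, at a median of 0.09. Over all genes 13.9% were higher and 11.5% lower in this comparison, at a median of 0.04. The luminal keratin gene Krt8 stood at 13.93 ± 0.01 in mock sorted, 13.93 ± 0.01 in trypsinized and 13.87 ± 0.03 in untrypsinized cells (log2, SD, n = 3 each), so the labelled epithelial cell type had its markers. The part of the luminal share in the changes of Prss8 and Spint1 was not tested. The lymphocyte markers summed to 17623 and 20268 in replicate 1 of the mock sorted and trypsinized groups, against 7099 to 8438 in replicates 2 and 3 of these groups and 4880 to 5316 in untrypsinized arrays, so replicate 1 stood apart in this list in the mock sorted and trypsinized groups and not in the untrypsinized group. F2r was highest in replicate 1 of all 3 groups, and the part of these cells in its values was not tested.

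**Figure D4:**
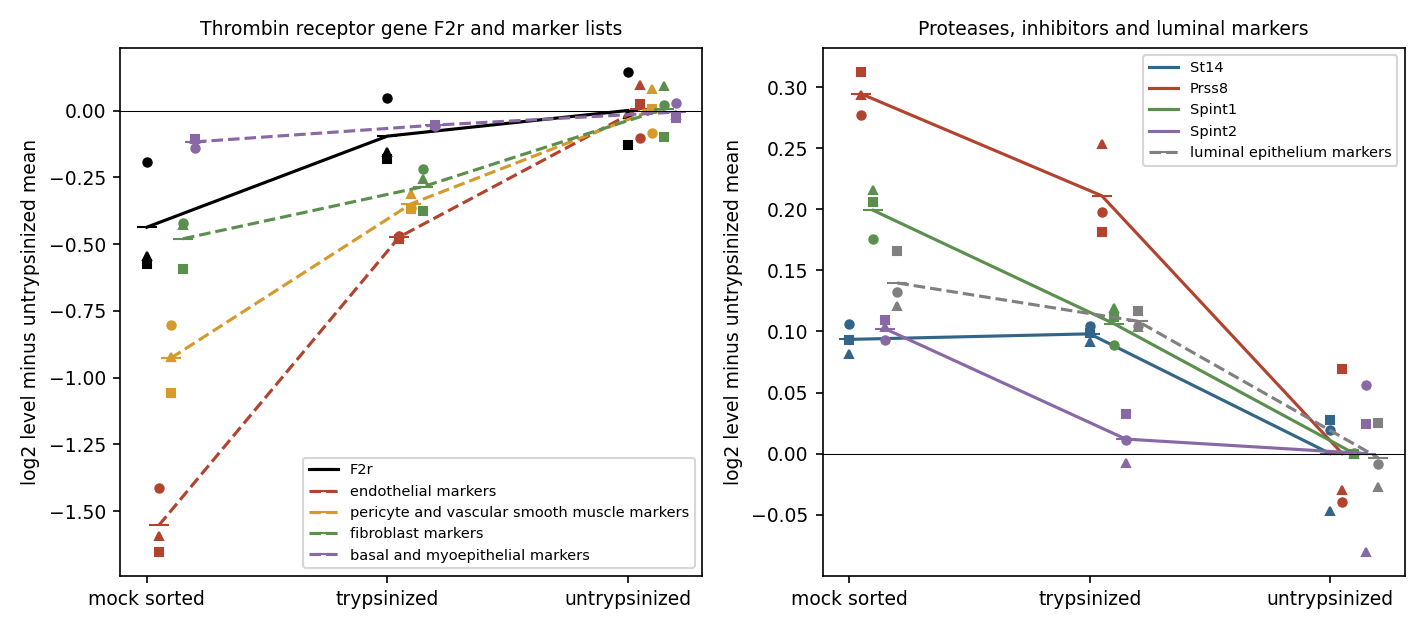
Log2 level of F2r (left) and of St14, Prss8, Spint1 and Spint2 (right) on each array, minus the untrypsinized mean, beside the median over each marker list of the same quantity (dashed). Points are arrays, shaped by replicate number, and lines join group means. F2r falls less than the endothelial and mural lists, and Prss8 and Spint1 lie at or above the luminal list in mock sorted cells.

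The counts of the 5 lists that follow stand beside shares over all genes. In mock sorted against untrypsinized cells 1.08% of all genes were called higher and 3.4% lower, and 21% were higher and 18% lower by adjusted p. For trypsinized against untrypsinized cells 0.532% were called higher and 0.933% lower, and 13.9% were higher and 11.5% lower by adjusted p. In mock sorted against trypsinized cells 0.0251% were called higher and 1.17% lower. The medians of all genes were 0.05, 0.04 and 0.00 in the order just given.

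Of 67 genes measured in a list of other serine proteases, 19 were higher and 9 lower by adjusted p in mock sorted against untrypsinized cells (median 0.15). In that comparison 2 were called higher and 3 lower. Masp1, a protease of the lectin pathway of complement, fell by 1.19 (SE 0.06, adjusted p = 3.55e-06), Htra1, a secreted protease that cleaves matrix, fell by 0.83 (SE 0.06) and Prss23 fell by 0.63 (SE 0.04). Prss22, a tryptase of epithelia, rose by 0.67 (SE 0.08, adjusted p = 0.000342), and by 0.55 in trypsinized against untrypsinized cells (adjusted p = 0.00254). Try10, a trypsinogen gene, was called higher too (adjusted p = 0.000587), but its log2 level of 7.07 ± 0.16 in untrypsinized cells lay above only 67.4% of olfactory receptor genes and it has close relatives, so no size is given. In trypsinized against untrypsinized cells 0 of the 67 were called, 13 were higher and 7 lower by adjusted p. The list also holds F3, the tissue factor gene, whose product is a cofactor and not a protease. F3 is counted as higher in mock sorted (0.19, adjusted p = 0.00545) and in trypsinized (0.13, adjusted p = 0.0390) against untrypsinized cells. Masp1, which fell by 0.71, was the 1 called in mock sorted against trypsinized cells.

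Among 40 genes measured in a list of other serine protease inhibitors, 3 were called lower and 0 higher in mock sorted against untrypsinized cells. By adjusted p 9 were higher and 8 lower (median 0.09). The list also holds Serpinh1, Serpinf1 and Itih2, whose products are not known to inhibit such proteases. Itih2 (0.23, adjusted p = 0.00397) is counted among the 9, as is Wfdc18, one of the luminal markers above. Tfpi, the inhibitor of the tissue factor pathway made by endothelium, fell by 1.15 (SE 0.14, adjusted p = 0.000468), Serpinb6a, an intracellular serpin, fell by 0.67 (SE 0.05) and Serpina3n, a secreted serpin, fell by 0.63 (SE 0.17, adjusted p = 0.0199). Tfpi was the 1 inhibitor called in mock sorted against trypsinized cells, where it fell by 0.75 (SE 0.14, adjusted p = 0.0185), and 0 were called in trypsinized against untrypsinized cells.

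Among 24 substrates and partners of matriptase, prostasin and thrombin, 4 were called lower and 0 higher in mock sorted against untrypsinized cells. By adjusted p 10 were higher and 5 lower (median 0.12). Epcam, Cldn7 and Cdh1 of this list are also among the luminal markers above, and Cldn7 and Cdh1 are counted among the 10. Procr, the endothelial protein C receptor, fell by 1.65 (SE 0.12), Vwf, the von Willebrand factor gene and one of the endothelial markers above, fell by 1.40 (SE 0.07), Thbd, the thrombin receptor thrombomodulin that turns thrombin to protein C, fell by 1.34 (SE 0.10) and F13a1, a clotting transglutaminase, fell by 1.01 (SE 0.09). Procr, Thbd and Vwf were called lower in mock sorted against trypsinized cells too, and in trypsinized against untrypsinized cells Vwf alone. Cdcp1, a matriptase substrate, was 0.44 higher in mock sorted against untrypsinized cells (adjusted p = 0.000193). Of the subunits of the epithelial sodium channel, which prostasin activates, Scnn1a was 0.29 higher (adjusted p = 0.00208), while Scnn1b was at -0.0087 (adjusted p = 0.883) and Scnn1g at -0.021 (adjusted p = 0.736). These 4 genes were chosen after their values were seen.

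Of 49 G proteins, phospholipases, arrestins and kinases downstream of the receptors, 7 were called lower and 0 higher in mock sorted against untrypsinized cells, with 5 higher and 17 lower by adjusted p (median -0.08). Rgs16, Rgs4 and Rgs5, which speed the switching-off of G protein alpha subunits, were at -1.86 (SE 0.08), -1.57 (SE 0.09) and -1.43 (SE 0.08), and Rgs5 is also a pericyte marker. Gnai1, an inhibitory alpha subunit, fell by 1.36 (SE 0.07), Grk5, a receptor kinase, fell by 0.97 (SE 0.05) and Jam3, a junction adhesion molecule, fell by 0.95 (SE 0.07). The seventh called gene, Gnao1, another alpha subunit, was at -0.77 (adjusted p = 3.18e-05) and was named after its value was seen. In trypsinized against untrypsinized cells Gnai1, Rgs4 and Rgs16 were called lower, and in mock sorted against trypsinized cells Rgs4, Rgs5 and Rgs16. The alpha subunits through which the receptors are best known to signal varied less: in mock sorted against untrypsinized cells Gnaq was at -0.17 (adjusted p = 0.0251), Gna11 at -0.31 (adjusted p = 0.000970), Gna12 at -0.16 (adjusted p = 0.00555) and Gna13 at 0.05 (adjusted p = 0.324), values chosen for their role after the data were seen.

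Of 32 transcripts known to follow activation of the receptors, 2 were called higher and 1 lower in trypsinized against untrypsinized cells, with 15 higher and 7 lower by adjusted p (median 0.10). Tnf and Lif, both cytokines, rose by 0.73 (SE 0.05) and 0.61 (SE 0.05), and Ccn3, a matricellular protein, fell by 1.06 (SE 0.07). In mock sorted against trypsinized cells 0 were called higher and 3 lower: the endothelial adhesion molecule Sele was at -1.33 (SE 0.07), the cytokine Il6 at -0.83 (SE 0.06) and Ccn3 at -0.68 (SE 0.07). For mock sorted against untrypsinized cells 2 were called higher and 4 lower. Tnf, at 0.73 (SE 0.05), and the growth factor Csf2, at 0.59 (adjusted p = 0.00294), were the higher ones, and Sele, Ccn3, Il6 and the adhesion molecule Vcam1 were the lower ones. Csf2 falls outside the naming rule and was named after its values were seen. These transcripts follow many stimuli besides the receptors.

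**Figure D5:**
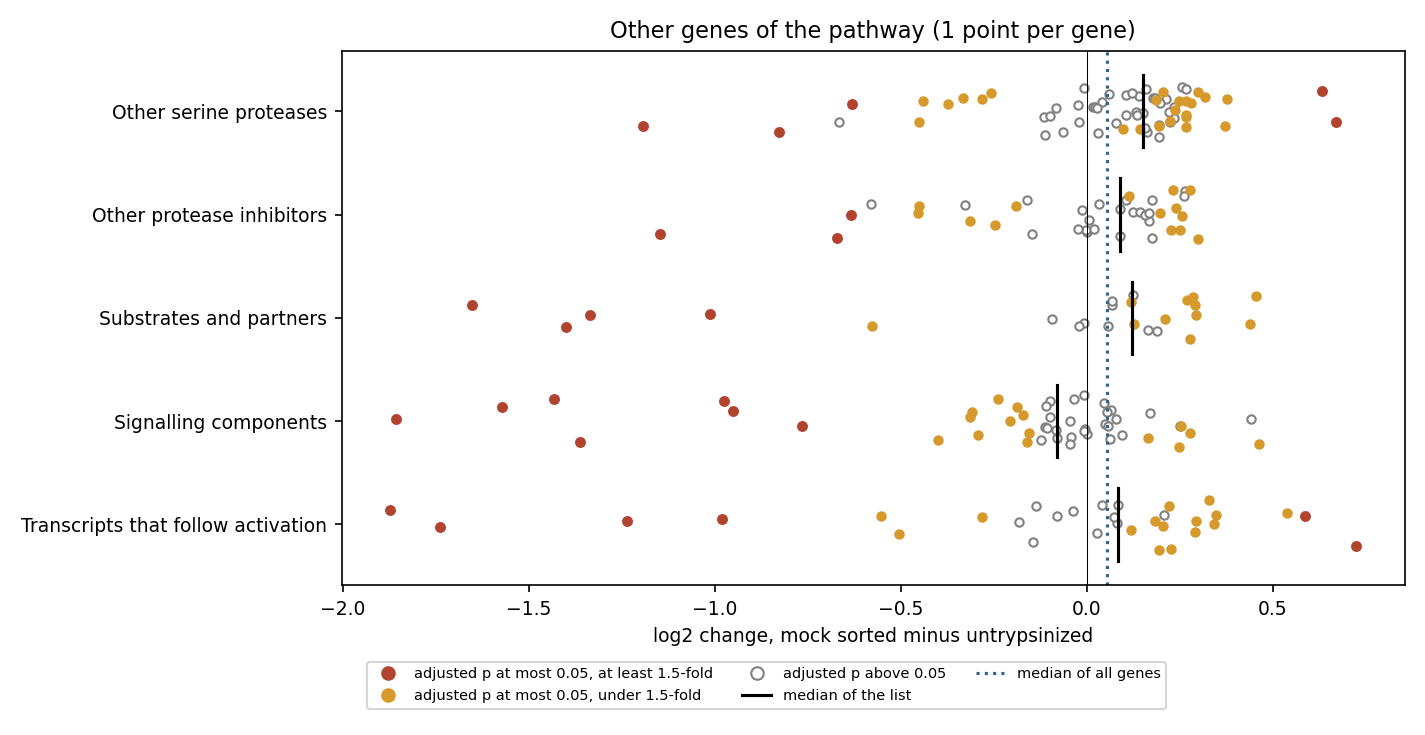
Log2 change in mock sorted against untrypsinized cells of each measured gene in the 5 lists, 1 point per gene, with the list median as a bar and the median of all genes as a dotted line. Red points are called, yellow ones pass the adjusted p under 1.5-fold and open ones do not pass. Called genes lie mostly on the left, with Rgs16 at -1.86 and Sele at -1.87 farthest out, while Prss22, Try10, Tnf and Csf2 are called on the right.

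The genes whose levels ran most like those of a member over the 9 arrays were looked up among 16982 genes above the olfactory median, as a description. For F2r they were Tnc, Cacna1g and Stoml1 (Pearson r of 0.98, 0.97 and 0.97), and for Prss8 Enpp7, Ehf and Abhd11 (r of 0.99 each), of which Ehf is an epithelial ETS factor and one of the luminal markers above. For Spint1 they were Tspyl5, Samd5 and Arrdc1 (0.99 each), for Spint2 Snd1, Dynlrb1 and Hsbp1 (0.98, 0.96 and 0.96) and for St14 Dhx37, Fxyd3 and Irf2bp2 (each 0.97). For F2rl2 they were Misp3, Tmie and Itih1 (0.96, 0.95 and 0.94) and for F2rl3 Isl2, Pnma2 and Olfr19 (0.95, 0.94 and 0.93). The number of genes with an r over 0.9 was 1121 for Prss8, 693 for Spint1, 245 for St14, 181 for F2r, 34 for F2rl2, 13 for Spint2 and 11 for F2rl3.

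F2rl1, F2r, Iqgap2 and F2rl2 come in this order among protein-coding genes on chromosome 13 in the RefSeq gene table of GRCm38.p6. F2rl2 lies within the span of Iqgap2, a scaffold protein gene. Iqgap2, chosen for its position, rose by 0.33 in mock sorted against untrypsinized cells (SE 0.04, adjusted p = 0.000312). F2r fell in that comparison and F2rl2 did not pass.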

How the data were processed

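RNA of 9 mouse samples had been measured on Affymetrix whole-transcript arrays with biotin-labelled total RNA, per the labels. The authors deposited 1 intensity per row and array on a linear scale, in 35512 rows; how they corrected background, summarised probes and scaled arrays is not given in the sources used here. Limma is named in the submitters' processing notes. Gene names came from GEO's platform annotation, with symbols of 21698 of 21789 single-symbol rows updated by gene number; 1621 rows had several symbols and 12102 were not listed. The row with the highest mean stood for a gene. No coordinates of the gene table are given, and promoter coordinates are those of the RefSeq promoter table.

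Log2(intensity + 1) of 19938 genes was fitted with limma 3.58.1 in R 4.3.3, with a mean per group, empirical Bayes moderation and Benjamini-Hochberg adjustment. The thresholds are the numbers of the submitters' design text, which does not compare mock sorted with untrypsinized cells. The fit was tested on simulated data. The members, the lists and the tests were chosen with earlier results of these data known. Named genes are the 7 members with a row, of each pathway list up to 6 called genes with the smallest p, and the 3 genes most correlated with each member, predicted genes and small RNAs left out.

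Deviations from the group means correlated over genes at 0.53, 0.29 and 0.29 between mock sorted and trypsinized arrays of the same replicate number. Arrays of unlike number stood at -0.36 to -0.31 where one was replicate 1, and at 0.16 and 0.13 between replicates 2 and 3. The numbers were taken to pair these arrays, less clearly so for replicates 2 and 3, and the labels say nothing of pairs. The number was kept out of the main fit and run as a block. For arrays of the same number, the correlations were 0.32, 0.18 and 0.06 between mock sorted and untrypsinized arrays. Between trypsinized and untrypsinized arrays they were 0.11, 0.04 and -0.04. Alternatives covered scaling, pseudocount, dim genes, thresholds, how rows were combined per gene, array weights, the block, a robust variance trend, fits of 2 groups and each array left out. A common median over the tested genes and a blocked fit of 6 arrays were added after seeing the data.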

Additional observations from a re-analysis of the deposited data

How the results depend on the processing

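Giving every array one median of all rows called 1 of the 7 genes, F2r, in mock sorted against untrypsinized cells. With no minimum fold, 5055 genes (2 members) passed in trypsinized against untrypsinized cells, 931 in mock sorted against trypsinized cells and 7777 (3 members) in mock sorted against untrypsinized cells. With each array left out, called genes numbered 257 to 332, 214 to 281 and 857 to 957 in the same order, called members 0 to 0, and genes passing the F test 4618 to 6332. In trypsinized against untrypsinized cells the sign turned for F2rl2 (-0.095) and F2rl3 (-0.068) after quantile normalization, for F2rl2 (-0.075), F2rl3 (-0.084), St14 (-0.036), Spint1 (-0.028) and Spint2 (-0.12) with one median of all rows, and for Spint2 (-0.0073) with one median of the tested genes. With an array left out, these changes spanned -0.0022 to 0.091 for F2rl2, -0.086 to 0.16 for F2rl3 and -0.028 to 0.040 for Spint2. In mock sorted against trypsinized cells it turned for St14 (0.00095) and Tnf (0.018) after quantile normalization and for St14 (0.040) and Tnf (0.042) with one median of the tested genes, and with an array left out the changes spanned -0.011 to 0.0016 for St14, -0.040 to 0.046 for Tnf and -0.18 to 0.012 for F2rl3. In mock sorted against untrypsinized cells it turned for F2rl2 (-0.050) after quantile normalization, for St14 (-0.056) and Spint2 (-0.048) with one median of all rows, and for F2rl3 (0.0028) with one median of the tested genes, and F2rl3 spanned -0.16 to 0.085 with an array left out. The cause was not tested. With the replicate block, which pairs arrays by number, 378, 240 and 954 genes were called, F2r passed in mock sorted against trypsinized cells (adjusted p = 0.0138), Spint1 did not pass in trypsinized against untrypsinized cells (adjusted p = 0.0599), and no other member crossed the adjusted p. F2rl2, near background, limits what can be said of that receptor.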
